A study of Homo sapiens with 36 samples.

Results

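The genes described here encode contents of the primary (azurophil) granule of neutrophils and markers of the promyelocyte, the stage at which that granule is made. The set names 9 genes, taken by gene symbol with earlier results of these data known: MPO, CTSG, ELANE, PRTN3, AZU1, CST7, MS4A3, SRGN and LYZ. A probe listed under its symbol was found for 8 of the 9, 1 probe each, among the 15308 genes tested. SRGN, the serglycin core protein that holds granule proteins together, had no probe under its symbol or gene ID and is not analysed here. All 8 passed the filter on dim probes, ELANE on 34 of 36 arrays and the others on 36 of 36.

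Primary granule proteins are transcribed at a high rate in promyelocytes and the transcription is shut down as granulocytes mature, while the proteins stay stored in the granules. Acute promyelocytic leukaemia cells are held near that stage by the PML-RARA fusion protein, and all-trans retinoic acid (ATRA) releases the hold and starts granulocytic maturation. Atorvastatin blocks HMG-CoA reductase, the enzyme that commits carbon to the mevalonate pathway.

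NB4, a human acute promyelocytic leukaemia line, was measured on 36 Illumina Sentrix Human-6 BeadChip arrays of total RNA. The 12 groups were control cells, cells given ATRA, cells given atorvastatin and cells given both, called the combination, each collected at 8, 24 and 48 h with 3 arrays per group. ATRA was added 1 h before atorvastatin. The study asked how a statin alters the expression changes that ATRA sets off in these cells. Each group holds 1 array from each of 3 experiments done on different days, told apart by runs of 12 in the numbers of the sample titles, and all come from 1 cell line. The sources used here give neither the doses nor the chip each array was on.

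Promoter sequence was available for 4 of the 9 genes, and it is shown because these 4 did not move alike: CTSG and MS4A3 fell under ATRA, whereas PRTN3 and AZU1 did not pass the test there. The 250 bases before each start site are printed in the direction of transcription from RefSeq, build GRCh38.p14. Capitals mark matches on either strand to the core site of the C/EBP factors, TTNNGNAA, or to the ETS core in the form preferred by PU.1, GAGGAA.
CTSG, chr14:24576251-24576500, minus strand: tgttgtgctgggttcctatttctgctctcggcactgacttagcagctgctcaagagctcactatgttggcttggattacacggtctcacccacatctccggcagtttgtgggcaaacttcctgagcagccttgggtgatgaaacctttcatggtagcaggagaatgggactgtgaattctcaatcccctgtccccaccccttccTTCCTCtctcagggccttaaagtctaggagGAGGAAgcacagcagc
PRTN3, chr19:840749-840998, plus strand: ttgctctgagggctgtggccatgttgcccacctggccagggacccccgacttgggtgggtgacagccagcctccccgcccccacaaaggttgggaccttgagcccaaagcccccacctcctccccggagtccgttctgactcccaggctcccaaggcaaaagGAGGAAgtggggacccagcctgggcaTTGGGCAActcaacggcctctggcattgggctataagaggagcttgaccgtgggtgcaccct
AZU1, chr19:827587-827836, plus strand: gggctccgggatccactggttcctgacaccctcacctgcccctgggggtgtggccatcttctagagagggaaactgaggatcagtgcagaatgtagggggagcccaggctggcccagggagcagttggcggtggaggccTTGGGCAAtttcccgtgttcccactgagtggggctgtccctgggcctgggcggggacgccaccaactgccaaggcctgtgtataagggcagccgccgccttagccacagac
MS4A3, chr11:60056415-60056664, plus strand: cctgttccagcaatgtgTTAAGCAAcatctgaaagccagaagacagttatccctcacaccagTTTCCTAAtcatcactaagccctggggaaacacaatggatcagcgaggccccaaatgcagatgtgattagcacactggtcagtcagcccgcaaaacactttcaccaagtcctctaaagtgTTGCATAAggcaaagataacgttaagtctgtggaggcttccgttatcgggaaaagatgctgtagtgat
CTSG held 2 matches to GAGGAA, from bases -46 to -41 and -16 to -11 relative to the start site, and none to TTNNGNAA. PRTN3 held 1 of each, GAGGAA at -88 to -83 and TTNNGNAA at -62 to -55. AZU1 held 1 match to TTNNGNAA, at -111 to -104, and MS4A3 held 3, at -233 to -226, -188 to -181 and -68 to -61. Over the 35116 promoters of the same length, 33.2% held TTNNGNAA and 23.6% held GAGGAA, so matches to both are common. AACNG, the core bound by MYB, was in all 4 and in 70.6% of all promoters. In MS4A3 1 match to AACNG overlaps 1 to TTNNGNAA. TGTGGT (RUNX), AGGTCA (the core of retinoid receptor sites) and TATAAA were in none of the 4, against 11%, 12.1% and 10.7% of all promoters. AZU1 (chr19:827837-832018), PRTN3 (chr19:840999-848175) and ELANE (chr19:852303-856243) lie side by side within 28407 bases, which makes them neighbours that can be compared under the same treatments.

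Signals are normalized log2 intensities, on which a step of 1 is a doubling. The background level was set at 6.71, the 95th percentile over all arrays of 17 genes restricted to other tissues. Gene against gene, levels depend on the probe, so levels are compared only between arrays for the same gene. Raw array medians ran from 78.5 to 185, and in experiment 1 they were 152 to 185 without ATRA and 102 to 118 with it, so brightness and ATRA moved together there before normalization. Of 7 neutrophil lineage markers 6 had a probe, and all 6 were above background in at least 1 group and 5 in all groups. All of them but CEBPE are among the genes described here. Of 4 monocyte markers with a probe 1 was above background in at least 1 group, and of 5 erythroid and megakaryocyte markers none was. So were 3 of 5 eosinophil, basophil and mast cell markers, 4 of 7 T and NK cell markers and 2 of 3 B cell markers.

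Before the results, 2 libraries need description, because they go against their labels. At 24 h in experiment 1 the library labelled ATRA had an NCF1 signal of 7.87, against 13.79 and 13.93 in the other ATRA libraries; NCF1 encodes an oxidase subunit that ATRA induces, and its near-identical pseudogenes may share the probe. The library labelled atorvastatin in that experiment had 13.64 for NCF1, against 7.48 and 7.36 in its group. KLF2, a factor that statins induce, was the other way round, at 8.50 in the library labelled ATRA and 6.48 in the one labelled atorvastatin. In the other atorvastatin libraries KLF2 was at 8.86 and 9.09, and in the other ATRA libraries at 6.48 and 6.43. Both libraries were kept under their labels, and calls that change without them are given both ways. The fit shares its spread over all groups, so leaving them out can change calls at other times too.

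**Figure D1:**
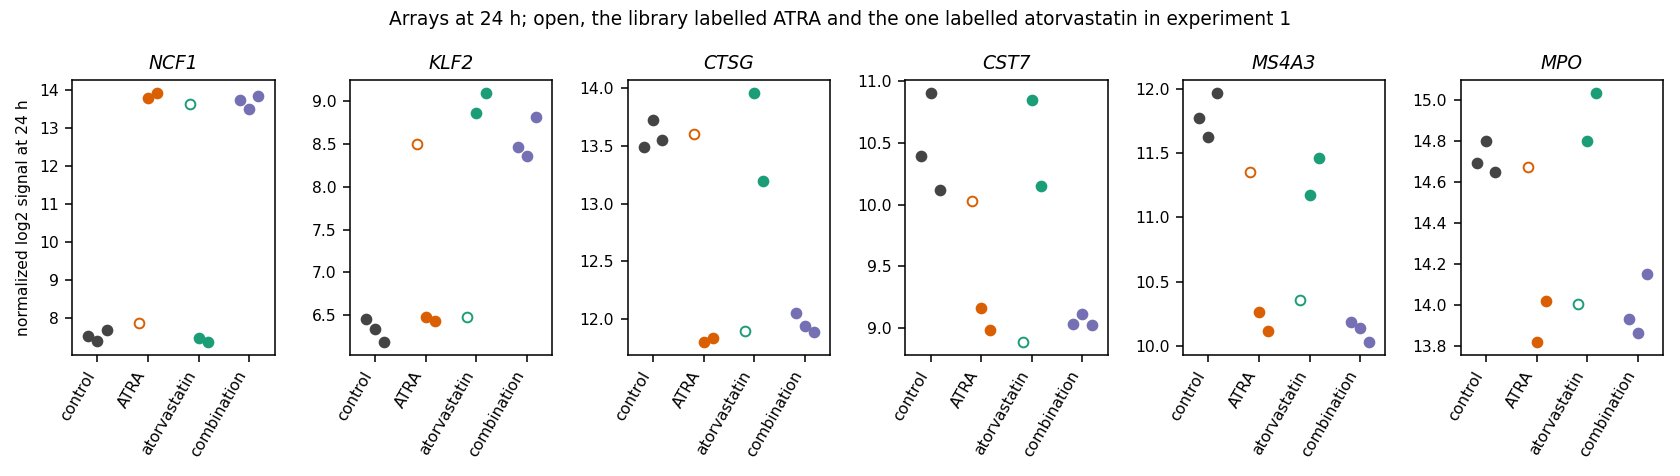
Normalized log2 signal at 24 h on each array for NCF1, KLF2 and 4 granule or promyelocyte genes, with experiments 1 to 3 from left to right in each group. Open circles are the library labelled ATRA and the one labelled atorvastatin in experiment 1; for CTSG they sit at 13.60 and 11.90, each among the arrays of the other agent.

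At 48 h 4 of the 8 genes (MPO, CTSG, CST7 and MS4A3) were below control under ATRA, where 3.96% of all genes were called lower. The same 4 and AZU1 were below control under the combination, where 10.7% of all genes were called lower. From 8 h to 48 h MPO, CTSG, CST7 and MS4A3 fell under the combination, where 16.0% of all genes were called in either direction. CTSG, CST7 and MS4A3 fell under ATRA over that time, where 2.85% of all genes were called lower. PRTN3 and ELANE passed no test at any time, and AZU1 passed 1. LYZ went the other way, rising under atorvastatin with or without ATRA. In the F test of all treated groups against their controls, 5 of the 8 genes passed in limma, against 15.8% of the genes tested. In a culture measured in bulk, fewer cells making a transcript and less of it per cell cannot be told apart.

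**Figure D2:**
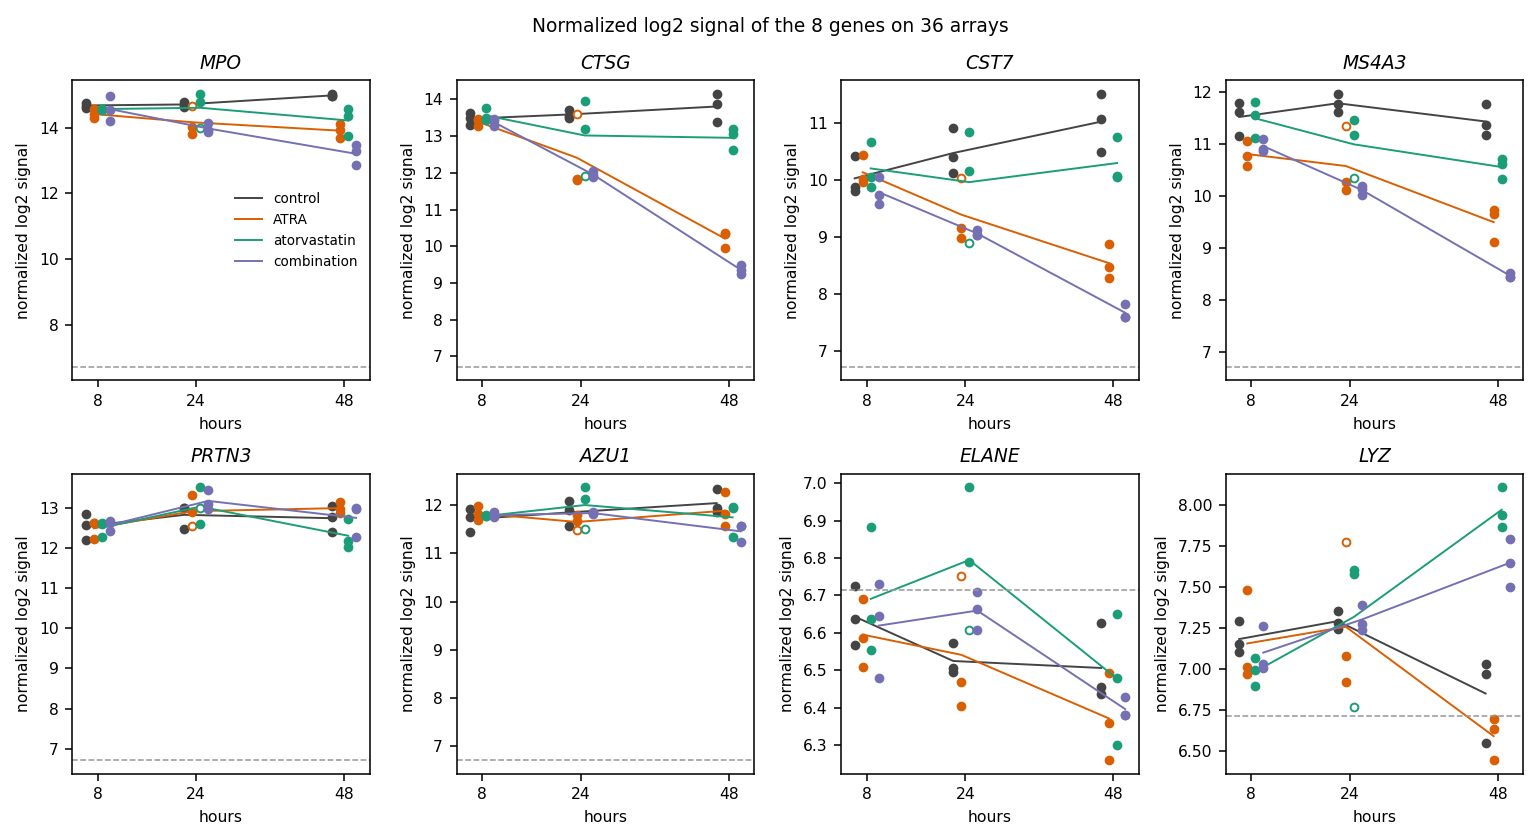
Normalized log2 signal of the 8 genes on all 36 arrays (points) with group means (lines) against hours of treatment; points of the 4 arms are set side by side for legibility, open circles are the 2 libraries that go against their labels and the dashed line is the background level of 6.71. MPO, CTSG, CST7 and MS4A3 descend under ATRA and the combination, and PRTN3 stays near its control levels. AZU1 stays near them except under the combination at 48 h, where its mean is 11.46 against 12.04 in control. ELANE lies at or near background and LYZ ends highest under atorvastatin.

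CTSG encodes cathepsin G, a chymotrypsin-like serine protease of the primary granule, on chr14:24573518-24576250. In control cells its signal was 13.49, 13.63 and 13.31 at 8 h, 13.49, 13.72 and 13.56 at 24 h, and 13.88, 14.15 and 13.39 at 48 h, in experiments 1 to 3. Under ATRA it was 13.27, 13.43 and 13.48 at 8 h, 13.60, 11.80 and 11.84 at 24 h, and 10.35, 10.33 and 9.96 at 48 h. Under the combination it was 13.27, 13.41 and 13.46 at 8 h, 12.05, 11.94 and 11.89 at 24 h, and 9.24, 9.35 and 9.48 at 48 h. The arms overlapped at 8 h, at 24 h the array at 13.60 is the library labelled ATRA of experiment 1, and at 48 h every ATRA array lay below every control array and every combination array below every ATRA array. In limma, ATRA lowered CTSG at 48 h by 12.1-fold, a log2 change of -3.60 ± 0.33 (SE, n = 3 per group, Benjamini-Hochberg adjusted p = 5.43e-09). The combination lowered it 21.8-fold, by -4.45 ± 0.33 on the log2 scale (limma adjusted p = 3.62e-12). Within experiments 1, 2 and 3 the ATRA differences were -3.53, -3.82 and -3.44, and the combination differences -4.64, -4.80 and -3.91.

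Under atorvastatin alone CTSG was at 13.49, 13.76 and 13.44 at 8 h, 11.90, 13.96 and 13.19 at 24 h, and 13.06, 13.19 and 12.62 at 48 h. All 3 arrays at 48 h lay below all 3 controls, by -0.85 ± 0.33 on the log2 scale, and the difference did not pass in limma (adjusted p = 0.265). Without the 2 libraries that go against their labels the same difference passed (limma adjusted p = 0.00381), and over 18 alternatives the adjusted p ran from 0.000455 to 0.617. The combination against ATRA alone at 48 h gave the same size, -0.85 ± 0.33 (limma adjusted p = 0.141), and 0.000814 without those libraries, over a range from 1e-04 to 0.576. The departure from additive effects of both agents was 0.00 on the log2 scale with a 95% interval from -0.95 to 0.95, so a departure within those bounds was not detectable. That interval uses the spread with the 2 libraries kept.

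CST7 encodes cystatin F, a protease inhibitor of the endosomal and lysosomal pathway that acts on cathepsin C, the enzyme that activates the granule serine proteases. At 48 h its signal was 11.06, 11.51 and 10.50 in control, 8.46, 8.86 and 8.28 under ATRA, and 7.60, 7.58 and 7.81 under the combination. At 8 h the controls had been at 9.87, 10.41 and 9.80, the ATRA arrays at 9.96, 10.43 and 10.01 and the combination arrays at 10.06, 9.73 and 9.57. At 24 h the controls were at 10.40, 10.91 and 10.12, the ATRA arrays at 10.03, 9.16 and 8.98 and the combination arrays at 9.03, 9.11 and 9.03. The 48 h groups did not overlap, and the controls had moved up while the treated cells moved down. ATRA lowered CST7 5.62-fold at 48 h, by -2.49 ± 0.32 on the log2 scale (limma adjusted p = 2.58e-06), and the combination 10.3-fold, by -3.36 ± 0.32 (limma adjusted p = 9.39e-10). The rise in control from 8 to 48 h was 1.00 ± 0.32 and did not pass in limma (adjusted p = 0.0788); blocking on the experiment made it pass (0.0248), as did leaving out the 2 libraries (0.0101) or the 48 h control array of experiment 3, over a range from 0.000168 to 0.344. Atorvastatin arrays at 48 h, 10.06, 10.76 and 10.07, overlapped the controls.

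MS4A3 encodes HTm4, a membrane protein of early granulocyte and monocyte progenitors that takes part in cell cycle control. Its signal at 8 h was 11.80, 11.16 and 11.61 in control, 11.06, 10.59 and 10.78 under ATRA and 10.87, 10.92 and 11.10 under the combination. At 24 h it was 11.77, 11.62 and 11.97 in control, 11.36, 10.26 and 10.12 under ATRA and 10.19, 10.14 and 10.03 under the combination. At 48 h it was 11.77, 11.18 and 11.36 in control, 9.72, 9.66 and 9.11 under ATRA, 10.72, 10.33 and 10.63 under atorvastatin, and 8.44, 8.53 and 8.45 under the combination. The 4 arms at 48 h were fully apart, in the order control, atorvastatin, ATRA, combination. ATRA lowered MS4A3 3.83-fold at 48 h, by -1.94 ± 0.25 (limma adjusted p = 2.26e-06), and the combination 7.81-fold, by -2.96 ± 0.25 (limma adjusted p = 5.34e-11). The combination was lower than ATRA alone by -1.03 ± 0.25 on the log2 scale (limma adjusted p = 0.00735), with differences of -1.28, -1.13 and -0.67 within experiments 1 to 3. That call was lost under median scaling and without experiment 2 or the ATRA array of experiment 1 (adjusted p up to 0.255).

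Already at 8 h every ATRA array and every combination array for MS4A3 lay below every control array. No other gene of the 8 had an unadjusted p below 0.05 against control at that time. The ATRA difference of -0.71 ± 0.25 did not pass in limma over all genes (adjusted p = 0.204); without the 2 libraries it did (0.0174), over a range from 0.00326 to 0.807. Under atorvastatin alone at 48 h MS4A3 was lower by -0.88 ± 0.25 (limma adjusted p = 0.0899), a difference that passed once the experiment was blocked (0.0492) or the 2 libraries were left out (0.00443), over a range from 0.000551 to 0.436. From 8 to 48 h within the atorvastatin arm it fell by 0.94 on the log2 scale (SE 0.25, limma adjusted p = 0.032).

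MPO encodes myeloperoxidase, which makes hypochlorous acid from hydrogen peroxide and chloride. Its signal at 24 h was 14.70, 14.80 and 14.65 in control, 14.68, 13.82 and 14.02 under ATRA, 14.01, 14.80 and 15.04 under atorvastatin, and 13.93, 13.86 and 14.15 under the combination. The combination arrays lay below the controls there, and the ATRA and atorvastatin groups each held the array of experiment 1 apart from the others. Its signal at 48 h was 14.97, 15.04 and 14.97 in control, 14.11, 13.69 and 13.95 under ATRA, 13.75, 14.56 and 14.37 under atorvastatin, and 13.29, 12.87 and 13.47 under the combination. Each treated group lay below the controls, the combination lay below the other treated groups, and ATRA and atorvastatin overlapped. ATRA lowered MPO 2.11-fold, by -1.08 ± 0.22 (limma adjusted p = 0.000845), and the combination 3.44-fold, by -1.78 ± 0.22 (limma adjusted p = 1.18e-07). Without experiment 2 the ATRA call was lost (adjusted p = 0.0765). The combination was lower than ATRA by -0.71 ± 0.22, close to the threshold (limma adjusted p = 0.0437). It was lost under 9 of 18 alternatives with values up to 0.387, among them leaving out any 1 experiment, the ATRA array of experiment 1 or 3, or the combination array of experiment 1 or 2. The atorvastatin difference, -0.77 ± 0.22, did not pass (limma adjusted p = 0.091) and passed without the 2 libraries (0.0102) and without the atorvastatin array of experiment 2, over a range from 0.00392 to 0.483. The MPO probe ranked from 2 to 190 among the 47293 probes of an array, where quantile normalization gives equal ranks equal values: its 36 arrays share 28 distinct values.

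PRTN3 encodes proteinase 3, a serine protease of the same granule and the usual target of the autoantibodies in granulomatosis with polyangiitis. At 8 h the controls were at 12.19, 12.58 and 12.83 and the combination arrays at 12.67, 12.42 and 12.62. At 48 h PRTN3 was at 12.76, 12.40 and 13.05 in control, 13.15, 12.96 and 12.86 under ATRA, 12.18, 12.01 and 12.71 under atorvastatin, and 12.99, 12.27 and 12.98 under the combination. Each treated group overlapped the controls, while the ATRA arrays lay above the atorvastatin arrays. The combination differed from control by 0.01 ± 0.23 on the log2 scale with a 95% interval from -0.46 to 0.48 (limma adjusted p = 0.989), which leaves out a fall of the size seen for CTSG, CST7, MS4A3 or MPO.

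AZU1 encodes azurocidin, a relative of the granule proteases that has lost its enzyme activity and kills bacteria by binding them. At 48 h it was at 11.86, 12.34 and 11.94 in control, 12.27, 11.82 and 11.56 under ATRA, 11.35, 11.97 and 11.93 under atorvastatin, and 11.57, 11.23 and 11.58 under the combination. The combination arrays lay below the controls, while the other groups overlapped them. The combination lowered AZU1 1.5-fold, by -0.59 ± 0.19 (limma adjusted p = 0.0229), and the difference was -1.11 in experiment 2 against -0.29 and -0.36 in experiments 1 and 3. Without experiment 2 the call was lost, as it was without the control or the combination array of that experiment at 48 h, under median scaling and with the 48 h arrays fitted alone (adjusted p up to 0.65).

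ELANE encodes neutrophil elastase. Its probe was at background in 11 of the 12 groups, with arrays between 6.26 and 6.99, and the atorvastatin group at 24 h, 6.61, 6.79 and 6.99, had a mean of 6.79. At 48 h the controls were at 6.44, 6.46 and 6.63 and the combination arrays at 6.38, 6.43 and 6.38, which gives no measured fall: a change below this level cannot be seen with the probe. Whether the probe reports the transcript was not tested. PRTN3 and AZU1, its neighbours in the chromosome 19 cluster, were above background on all 36 arrays.

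LYZ encodes lysozyme, which cuts bacterial peptidoglycan and is made by granulocytes and, at higher rates, by monocytes and macrophages. At 8 h its signal was 7.11, 7.15 and 7.29 in control, between 6.89 and 7.06 under atorvastatin, and 7.26, 7.03 and 7.01 under the combination. At 48 h it was 6.55, 7.03 and 6.97 in control, 6.44, 6.70 and 6.63 under ATRA, 8.11, 7.87 and 7.94 under atorvastatin, and 7.65, 7.80 and 7.50 under the combination. Both groups with atorvastatin lay above both groups without it, and the ATRA mean of 6.59 was at background. Atorvastatin raised LYZ 2.18-fold against control, by 1.12 ± 0.18 (limma adjusted p = 0.000566), and the combination raised it 1.74-fold, by 0.80 ± 0.18 (limma adjusted p = 0.00136). Against ATRA alone the combination was higher by 1.06 ± 0.18 (limma adjusted p = 0.000195), with differences of 1.20, 1.10 and 0.87 within experiments 1 to 3. Under median scaling the atorvastatin call was lost (adjusted p = 0.108). Since the control signal lies close to background, these differences may understate the change.

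Monocyte markers were examined beside LYZ. The summed linear signal of the 4 with a probe was 401 to 447 in the control arrays at 48 h, 460.4 to 553 under ATRA, 488 to 640.3 under atorvastatin and 644 to 823 under the combination. CD14, VCAN and CD163 had group means at or below background in every group, and CSF1R, the macrophage colony-stimulating factor receptor, was the 1 marker above it. CSF1R was higher by 1.37 ± 0.20 in the combination at 48 h (limma adjusted p = 2.02e-06) and by 0.60 ± 0.20 under atorvastatin, which did not pass (limma adjusted p = 0.156). Its means in control, ATRA, atorvastatin and combination were 8.44, 9.03, 8.21 and 9.03 at 8 h. At 48 h they were 7.65, 8.07, 8.25 and 9.02, so the control mean was lower than at 8 h and the combination mean about the same. All arrays are of the NB4 line, and a link between these markers and the LYZ result was not tested.

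**Figure D3:**
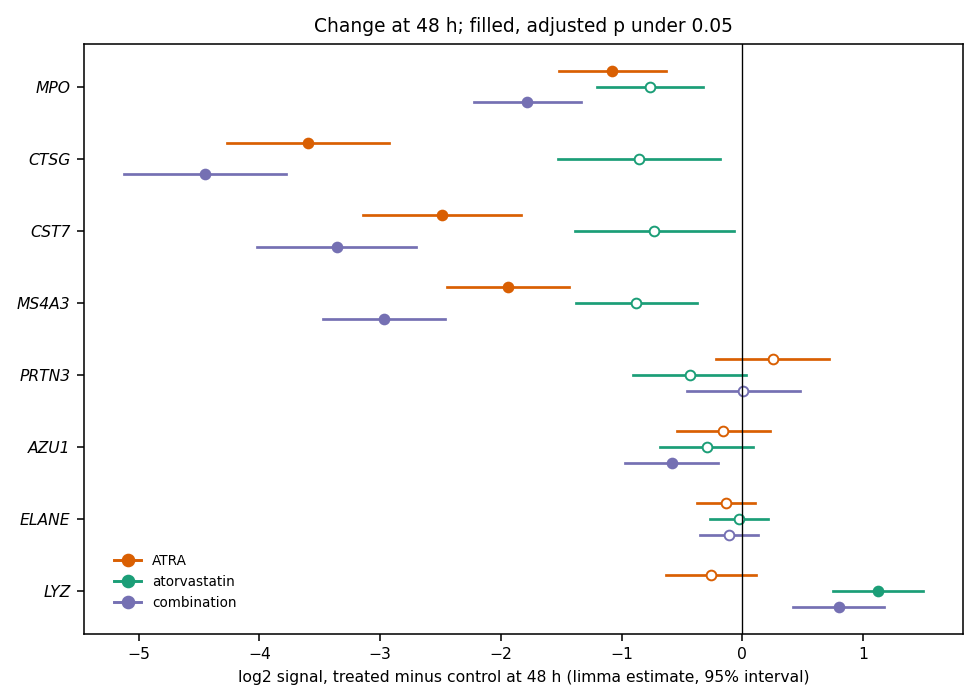
Difference from control at 48 h in normalized log2 signal (limma estimate with 95% interval) for the 8 genes under ATRA, atorvastatin and the combination; filled circles passed an adjusted p of 0.05. The estimates for CTSG are -3.60 and -4.45 under ATRA and the combination, those for PRTN3 run from -0.44 to 0.25, and LYZ is at 1.12 under atorvastatin.

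The shares of all genes include dim ones: 48.7% of the genes tested had a mean at or below background, where a fall can hardly be seen. MPO, CTSG, PRTN3, AZU1, CST7 and MS4A3 had mean signals above those of at least 85.6% of the genes tested. As a group at 48 h, 4 of the 8 genes fell under ATRA and none rose, where 3.96% of all genes tested were called lower. Their median log2 change was -0.67, against -0.01 over all genes. Under the combination 5 fell and 1 rose, where 10.7% of all genes were called lower and 20.3% in either direction, and the median change was -1.18 against -0.01 over all genes. Atorvastatin alone gave 0 lower and 1 higher, against 0.771% of all genes called in limma. Before adjustment 5 of the 8 had a limma p below 0.05, but the shares of all genes in this paragraph are for adjusted p only. Without the 2 libraries 3 were lower and 1 higher under atorvastatin, where 1.71% of all genes were called. The combination against ATRA gave 2 lower, MPO and MS4A3, and 1 higher, LYZ, where 6.40% of all genes were called. Blocking on the experiment added CST7 (limma adjusted p = 0.0431). Without the 2 libraries 4 were lower and 1 higher, where 7.60% of all genes were called. The interaction of both agents passed for none of the 8 genes in limma at any time, and none had an unadjusted p below 0.05 at 48 h, where 0.536% of all genes passed. Median scaling in place of quantile normalization moved the median of all genes in the combination comparison from -0.01 to 0.10, the members' median to -0.88, and the share of calls that were higher from 47.5% to 87.8%; the falls of MPO, CTSG, CST7 and MS4A3 passed under both.

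At 24 h the combination lowered 4 of the 8 genes, where 2.52% of all genes were called lower: CTSG by -1.63 ± 0.33, MS4A3 by -1.67 ± 0.25, CST7 by -1.42 ± 0.32 and MPO by -0.73 ± 0.22 (limma adjusted p from 3.16e-05 to 0.0356). The MPO call was lost under 9 of 18 alternatives, with any 1 control array left out among them, and those of CTSG and CST7 under 3 each, experiment 2 left out among them. ATRA alone lowered 1, MS4A3, by -1.21 ± 0.25 (limma adjusted p = 0.0174), where 0.144% of all genes were called lower. That call was lost without any 1 control array, without the ATRA array of experiment 2 or 3, under median scaling and in the 24 h arrays alone (adjusted p up to 0.994). Without the 2 libraries all 4 genes passed, with CTSG at -1.77, MS4A3 at -1.60, CST7 at -1.40 and MPO at -0.79. Their limma adjusted p ran from 2.14e-08 to 0.00876, where 1.46% of all genes were called lower. With only the library labelled ATRA of experiment 1 left out, MPO, CTSG and CST7 passed too. On the authors' log2 values, both libraries kept, MPO and CTSG passed. Blocking on the experiment, both libraries kept, also made CST7 pass (limma adjusted p = 0.0473). In the atorvastatin arm at 24 h none of the 8 passed in limma, where 0.0327% of all genes did. Before adjustment 2 had a limma p below 0.05, but the shares of all genes in this paragraph are for adjusted p only. The mean of CTSG in that arm was 13.02 with the library labelled atorvastatin of experiment 1 and 13.58 without it. At 8 h none of the 8 passed in limma in any comparison, and 1 had an unadjusted p below 0.05 under ATRA and 1 under the combination. Of all genes 1.42% passed there under ATRA, 1.31% under the combination and 0.00653% under atorvastatin; 0.00653% passed in the combination against ATRA. Without the 2 libraries MS4A3 passed under ATRA at 8 h, where 2.67% of all genes did. At 24 h the combination against ATRA gave no call among the 8, none with an unadjusted p below 0.05, where 0.0131% of all genes passed.

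Over time within an arm, 48 h against 8 h, the control arm had no call among the 8, where 3.67% of all genes were called. ATRA cells had 3 falls, of CTSG (-3.18 ± 0.33), CST7 (-1.60 ± 0.32) and MS4A3 (-1.31 ± 0.25), where 2.85% of all genes fell, with limma adjusted p from 7.78e-08 to 0.00132. The falls of CST7 and MS4A3 were lost without experiment 3 (adjusted p = 0.0589 and 0.0611). Combination cells had 4 falls, of CTSG (-4.02 ± 0.33), MS4A3 (-2.49 ± 0.25), CST7 (-2.12 ± 0.32) and MPO (-1.37 ± 0.22), and 1 rise, of LYZ (0.55 ± 0.18), where 16.0% of all genes were called. Atorvastatin cells had 1 fall, of MS4A3, and 1 rise, of LYZ (0.99 ± 0.18, limma adjusted p = 0.00155), where 2.62% of all genes were called. That rise of LYZ was lost under median scaling and without experiment 2 (adjusted p up to 0.0824). The MS4A3 call there was lost under 7 of 17 alternatives (adjusted p up to 0.214), leaving out the 48 h atorvastatin array of experiment 1 or 2 or the 8 h one of experiment 1 or 3 among them. The LYZ rise under the combination was lost under 6 of 17 (up to 0.364). Without the 2 libraries LYZ fell under ATRA, by -0.57 (limma adjusted p = 0.00454, range 0.00394 to 0.352), and CTSG under atorvastatin, by -0.61 (0.0346, range 0.0089 to 0.7). The change over time differed from that in control for 2 of the 8 genes under ATRA, 1 under atorvastatin and 5 under the combination, where 0.457%, 0.0980% and 5.64% of all genes did.

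Most other genes of the primary granule did not fall. Of 16 such genes 13 were measured, and under the combination at 48 h 9 were higher and 1 lower in limma, with a median log2 change of 0.74 against -0.01 over all genes, of which 20.3% were called. CTSD, the aspartic protease cathepsin D, had a mean of 7.63 in control and 11.04 under the combination, higher by 3.41 ± 0.31 (limma adjusted p = 2.17e-10). BPI, the protein that binds bacterial lipopolysaccharide and permeabilizes the membrane, had means of 6.22 and 9.01 and was higher by 2.79 ± 0.26 (limma adjusted p = 3.92e-10). DEFA4, an alpha-defensin, was higher by 2.54 ± 0.62 (limma adjusted p = 0.00257). The called DEFA1 and DEFA3 are near-identical copies whose probes may read each other. At 48 h the means of CTSD, BPI and DEFA4 were 9.97, 9.90 and 13.64 under ATRA alone, against 11.04, 9.01 and 12.41 under the combination. Under atorvastatin alone they were 7.65, 6.18 and 8.04, against 7.63, 6.22 and 9.87 in control. The 1 that fell was RNASE2, the eosinophil-derived neurotoxin, by -1.33 ± 0.17 (limma adjusted p = 3.07e-07). Under ATRA alone 7 were higher and 1 lower, where 1224 of the 15308 genes tested were called in limma. Under median scaling the combination count was 11 higher and 1 lower and the ATRA count 7 higher and 0 lower.

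**Figure D4:**
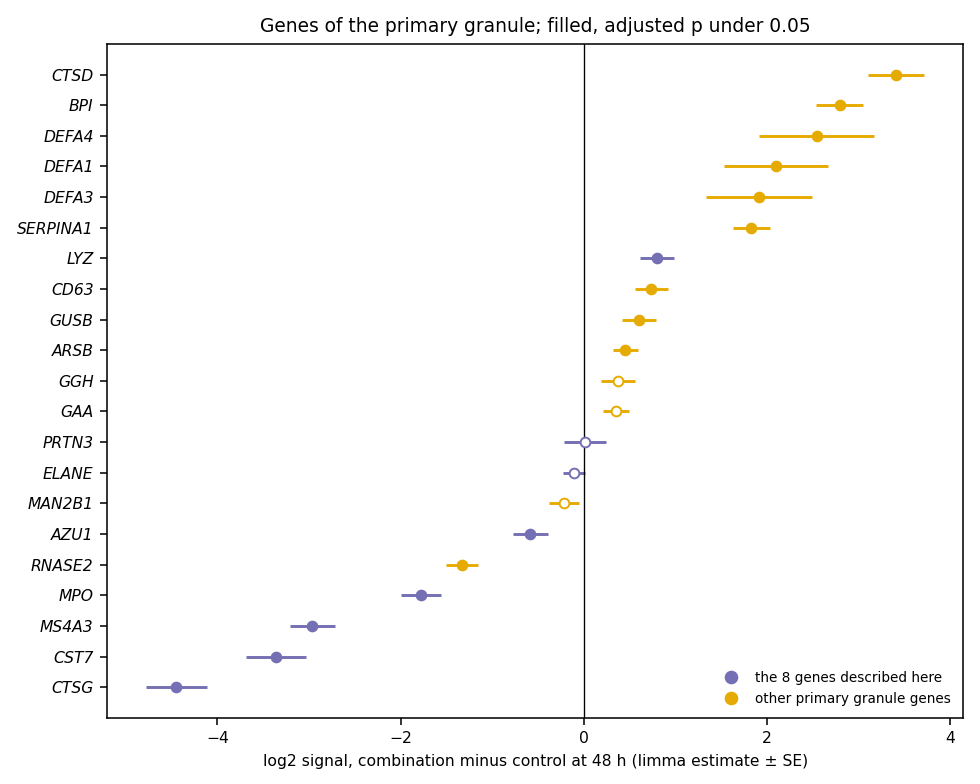
Difference between combination and control at 48 h in normalized log2 signal (limma estimate ± SE) for the 8 genes and for 13 other genes of the primary granule; filled circles passed an adjusted p of 0.05. CTSD (3.41), BPI (2.79) and the defensins lie at the top and CTSG (-4.45), CST7 (-3.36) and MS4A3 (-2.96) at the bottom, on opposite sides of 0.

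Of 15 genes that process or inhibit the granule proteases 12 were measured, and 3 were higher and none lower under the combination at 48 h (limma, median change 0.11), a share near the 20.3% of all genes called. SERPINB1, a cytosolic inhibitor of elastase, cathepsin G and proteinase 3, was higher by 2.92 ± 0.38 (limma adjusted p = 3.9e-07). CTSL was higher by 0.81 ± 0.19 and CSTB by 0.50 ± 0.18 (limma adjusted p = 0.0014 and 0.0469), and the CSTB call was lost on the authors' log2 values (0.44, adjusted p = 0.191). CTSC, the activating cathepsin C that cystatin F acts on, differed by 0.02 ± 0.20 (limma adjusted p = 0.966). Of 18 genes of the later secondary and tertiary granules 7 were higher and 1 lower, against the same 20.3%, the latter being TCN1, a vitamin B12 binding protein, by -0.91 ± 0.15 (limma adjusted p = 1.84e-05). The higher ones were led by CYBB (1.995 ± 0.21), FCN1 (1.78 ± 0.15) and CYBA (1.18 ± 0.15), with limma adjusted p up to 2.38e-07; CYBB and CYBA are the membrane subunits of the oxidase.

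Of 14 regulators of early myeloid genes 13 were measured. In limma 5 were higher and 4 lower under the combination at 48 h, where 20.3% of all genes were called. MYB, a factor that maintains progenitor transcription, fell by 1.62 on the log2 scale (SE 0.18, limma adjusted p = 3.22e-08) and MYC fell by 2.52 (SE 0.18, limma adjusted p = 1.93e-12). CEBPE, which drives late granulocyte genes, was higher by 2.82 ± 0.42, SPI1 (PU.1) by 1.66 ± 0.21 and CEBPB by 1.55 ± 0.30, with limma adjusted p from 1.64e-07 to 0.000134. ETV6, a repressor of the ETS family, fell by 1.25 (SE 0.17, limma adjusted p = 5.64e-07). CEBPA and GFI1, which act at the promyelocyte stage, differed by -0.06 ± 0.20 and -0.39 ± 0.17 and did not pass (limma adjusted p = 0.894 and 0.127).

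Among 24 genes listed as neighbours of the genes on their chromosomes 21 were measured. These include CPT1B, matched through the listed symbol MCPT1, whose place beside the genes was not checked and which was not called. Under the combination at 48 h, 5 were lower and 1 higher in limma, where 20.3% of all genes were called. Median scaling left 1 lower and 2 higher. MS4A7, in the same family cluster as MS4A3, was lower by -3.06 ± 0.39 (limma adjusted p = 3.06e-07). CFD (complement factor D), next to ELANE, was higher by 1.17 ± 0.14 (limma adjusted p = 1.41e-07), on the side opposite to the falling genes. Among 12 genes of serglycin-bound cargo and its synthesis 2 were higher, CCL3 and PRF1, and 1 lower, CHST11, of which CHST11 was lost under median scaling. These 3 of 12 are again a share near the 20.3% of all genes.

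Markers of other blood cells moved at 48 h as well. PRG2, the eosinophil major basic protein, was lower by -2.37 ± 0.44 under ATRA and by -2.19 ± 0.44 under the combination (limma adjusted p = 0.000337 and 0.000277). The summed signal of 5 eosinophil, basophil and mast cell markers with a probe was 5032 to 7592 in control, 1221 to 2019 under ATRA and 1228 to 2332 under the combination, and 3 of the 5 were above background in some group. PRG2 was the only 1 of the 5 called under ATRA or the combination. Its mean in control was 12.59, with TPSAB1 at 7.23 and the others lower, so the sum mostly follows PRG2. Of 7 T and NK cell markers 5 were measured. Under the combination 2 were higher and 1 lower, where 20.3% of all genes were called. NKG7, a granule membrane protein of cytotoxic lymphocytes, was higher by 2.97 ± 0.19 (limma adjusted p = 8.88e-14) and PRF1, the pore-forming perforin, by 0.75 ± 0.18 (0.00249). CD3D, a chain of the T cell receptor complex, was lower by -0.40 ± 0.12 (limma adjusted p = 0.0162), which median scaling turned to 0.007 (0.988), and by -0.84 ± 0.12 under ATRA (1.49e-05). The summed signal of all 7, those that failed the filter on dim probes included, was 1616 to 1940 in control. It was 1472 to 1740 under ATRA and 2475 to 2670 under the combination. Of 4 B cell markers 3 were measured, and the 2 chains of the B cell receptor's signalling unit went opposite ways under the combination. CD79A was higher by 2.35 ± 0.40 and CD79B lower by -0.81 ± 0.14 (limma adjusted p = 2.78e-05 and 3.48e-05). All arrays are of the NB4 line, and a link between these markers and the results on the 8 genes was not tested.

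The 8 genes differed in how their 12 group means ran together, given here as a description of groups that share arrays, batches and scaling. Unless stated, the libraries that go against their labels were left out of these means. CTSG correlated with MS4A3 at 0.96, CST7 at 0.95 and MPO at 0.93, with AZU1 at 0.53, with LYZ at 0.01 and with PRTN3 at -0.38. By Pearson r over the 12 group means, among about 1530 genes whose means span at least 1 log2 unit, the genes most like CTSG were CTXN1 (0.98), IGFBP4 (0.97) and CTTN (0.97). CTXN1 was also the most like CST7 (0.98), followed by RNASE2 (0.97) and EBF4 (0.97). MS4A3 was most like YBX3, MLC1 and CPNE7 (each 0.98), and MPO most like NPM1, MRPS30 and NARS2 (0.97, 0.97 and 0.96). LYZ was most like LGALS1 (0.91), ANXA2 (0.91) and ECM1 (0.89). With those libraries kept, these genes were at 0.90, 0.91 and 0.94 with LYZ. For PRTN3, AZU1 and ELANE the closest gene reached 0.75, 0.81 and 0.87, and the same gene reached 0.76, 0.72 and 0.85 with those libraries kept.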

How the data were processed

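Total RNA of NB4 cells was measured on 36 arrays. Per the labels, bead averages came from BeadStudio 1.3.1.5 with no background subtracted, and the deposited values of each array are linear intensity that the arrays' medians show was not normalized between arrays. The authors' deposited value table holds log2 values, used here as an alternative, whose column medians ran from 6.68 to 6.69; its scale and direction matched each array, it was not centred, and its normalization is not given in the sources used here.

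The 47293 probes went through normexp background correction (offset 50) and then quantile normalization, both in limma 3.58.1 (R 4.3.3). A probe was kept if it exceeded the median of its array on 3 or more arrays. A gene is the brightest of its probes by platform annotation (18468 probes carry 1 symbol, 28825 none), which gave 15308 genes. A model of 12 group means (24 residual degrees of freedom) was fitted with lmFit and eBayes; tests were two-sided, with Benjamini-Hochberg adjustment over all genes and a threshold of 0.05. The model fit and its calls were checked on simulated gene values with independent noise. Background correction, normalization, the filter and the choice of probe were not part of that check. P-values rest on a spread pooled over the 12 groups of 3 experiments in 1 cell line, with the 2 libraries that go against their labels included. The standard deviation within groups was 0.46 for CTSG with those libraries and 0.22 without, and 0.31 for PRTN3 both ways. The number of arrays limits the precision.

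The members and the gene lists were chosen with earlier results of these data known. Values are given for every member; other genes were named from the lists, up to 3 per direction by size of change in the combination at 48 h, while CTSC, CEBPA, GFI1, DEFA1 and DEFA3 were named after their values were seen. The genes' promoters were read from RefSeq.

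Experiments were taken as a pairing from the stated different days and the title numbers. Deviations from group means correlated at -0.53 to 0.44 within an experiment (median 0.14, over 0.1 in 126 of 198 pairs), and 31 of 36 arrays were nearest to an array of the same experiment. The experiment as a block, other background and scaling, the authors' values, no filter, the mean over probes, single times, and single arrays or experiments left out were the alternatives.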

Additional observations from a re-analysis of the deposited data

Results flagged for a closer look

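The change from 8 h to 48 h in a treated arm was set against that in the control arm, and 8 such differences passed in limma; the comparison was added after the data were seen. Under ATRA the difference was -3.5126 for CTSG and -2.5964 for CST7 on the log2 scale. Under the combination it was -4.3517 for CTSG, -3.1185 for CST7, -2.4032 for MS4A3, -1.6725 for MPO and 0.8814 for LYZ. Under atorvastatin it was 1.3212 for LYZ. In each of experiments 1, 2 and 3 the sign was the same: for CTSG under the combination the values were -4.41, -4.59 and -4.06, and for LYZ under atorvastatin 1.67, 1.09 and 1.20. Both LYZ differences were lost under 10 of 23 alternatives (adjusted p up to 0.737 under atorvastatin and 0.298 under the combination). CST7 under ATRA was lost without experiment 3 (adjusted p = 0.1) and MPO under the combination without experiment 2 (0.0661), and the other 4 passed under all 23. These differences use the same control arrays, so they are not independent of each other. MS4A3 under ATRA, -1.22, did not pass (limma adjusted p = 0.132) and passed without the 2 libraries that go against their labels (0.00442), over a range from 0.000512 to 0.736.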

How the results depend on the processing

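None of the calls among the 8 genes changed sign under any alternative; among the other lists, CD3D in the combination at 48 h turned from -0.40 to 0.007 under median scaling. Without background correction, without the filter on dim probes and with the mean over probes, all 176 gene and comparison pairs kept their call. Median scaling removed 10 calls and left 0 genes changed under ATRA at 24 h, 2 under the combination at 24 h, 0 under atorvastatin at 48 h, 1 in the combination against ATRA at 48 h and 0 over time under atorvastatin. The authors' values gave 3 for ATRA at 24 h. Single times gave 1 for ATRA at 8 h, 0 for ATRA and 1 for the combination at 24 h, and 2 for atorvastatin at 48 h. Without the 2 libraries that go against their labels the counts were 1 for ATRA at 8 h, 4 for ATRA at 24 h, 4 for atorvastatin and 5 for the combination against ATRA at 48 h, and 1 over time in control. With the experiment as a replicate block they were 2 for ATRA at 24 h, 2 for atorvastatin at 48 h and 1 over time in control, and the pairing changed no other count by over 1.5 times. The block without both libraries gave 1 for ATRA and 1 for the combination at 8 h, 4 for ATRA at 24 h, 5 for atorvastatin and 5 for the combination against ATRA at 48 h, and over time 1 in control and 5 under ATRA. The causes were not tested.

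With 1 array or 1 experiment left out, counts ran from 0 to 4 for ATRA and 1 to 4 for the combination at 24 h. At 48 h they ran from 3 to 4 for ATRA, 1 to 3 for atorvastatin, 5 to 6 for the combination and 1 to 5 for the combination against ATRA. Over time they ran from 0 to 1 in control, 1 to 4 under ATRA, 0 to 2 under atorvastatin and 4 to 5 under the combination; the other counts stayed at 0. With the median of all probes as the limit, 0 of the 12 group means at background were so called. Signals near background, those of ELANE and LYZ, limit what can be seen of a fall.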
